A study of Mus musculus with 19 samples.

Results

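The semaphorin, ephrin, Slit and netrin guidance genes are the ligands of these families and their receptors: semaphorins with plexins and neuropilins, ephrins with Eph receptors, Slits with Robo receptors, and netrins with the Unc5 receptors, Dcc and neogenin. They were taken by gene symbol from a table of 55536 genes, and 61 of the 69 genes with a matching symbol had at least 100 counts summed over 19 libraries. The 61 genes were 32 ligands and 29 receptors, and all 61 had enough reads to be tested. The lowest totals kept were 115 counts for Sema4f and 204 for Plxnb3, and the highest total left out was 53 for Slit1.

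RNA was sequenced from mouse kidney in 8 libraries of obstructed kidneys given zalfermin, 7 of obstructed kidneys given vehicle and 4 of healthy kidneys. Obstruction is abbreviated UUO in the design, usually read as unilateral ureteral obstruction, in which a tied ureter leads to kidney fibrosis; zalfermin is, by the title, a form of the hormone FGF21 that acts for long. Labels and design differ in wording: the 15 obstructed libraries carry the condition MASH in their labels and UUO in the design, the healthy ones are untreated in their labels and vehicle in the design, and the drug appears in the labels as a code, read here as zalfermin. The sources used here give no strain, age, dose or collection time, and do not say that each library is a separate animal; p-values therefore cover the spread between libraries only, which could be technical.

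In the developing nervous system guidance ligands steer growing axons by binding receptors on the growth cone, where the receptors act on the actin skeleton through small GTPases. Outside the nervous system the same families guide vessels, shape epithelial tubes and set boundaries between cell groups, and Slit2 with Robo2 limits the number of ureteric buds in the mouse embryo. Class 3 semaphorins are secreted and signal through neuropilins paired with plexins, most other semaphorins are membrane-bound and bind plexins directly, and ephrins are held on the cell surface, by a lipid anchor in the A class and a membrane-spanning segment in the B class.

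Libraries held 12209122 to 14844103 counts. The guidance genes took 0.327% ± 0.0112 of the counts in zalfermin-treated obstructed kidneys, 0.332% ± 0.0229 in vehicle-treated obstructed kidneys and 0.178% ± 0.0162 in healthy kidneys (SD, n = 8, 7 and 4). Vehicle replicate 6 stood apart from the other vehicle libraries. It had reads for 19788 genes, against 21374 to 22216 in the others. Mitochondrial genes made up 1.10% of its total, against 3.09% to 4.21% in the others. In healthy libraries they made up 8.77% to 10.16%. Vehicle replicate 6 held the highest value of the 7 vehicle libraries for 21 of the 61 genes and the lowest for 15. Replicate 1 was highest for 15, and replicate 2 was lowest for 24. The summed proximal tubule markers of replicate 6 reached 4305 CPM, against 1972 to 3543 CPM in the other vehicle libraries. Levels are in CPM, the count scaled to the TMM-adjusted library total, whereas the shares above are of raw counts. TMM factors were 0.751 to 0.843 in healthy and 1.018 to 1.11 in vehicle-treated obstructed libraries. Summed as CPM per kb of transcript, the guidance genes stood at 617 ± 19.1 in zalfermin-treated obstructed kidneys. The sum was 613 ± 29.7 in vehicle-treated obstructed and 463 ± 20.8 in healthy kidneys (SD).

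The following 4 promoter windows show the regions in front of genes described below, each running from 250 bases before to 50 bases after the gene's start (RefSeq, GRCm38.p6). Plxnc1 (chr10:94944796-94945095, minus strand) had the largest rise with obstruction, Epha2 (chr4:141300971-141301270, plus strand) had the smallest adjusted p among the Eph receptors, Sema4g (chr19:44989094-44989393, plus strand) had the largest fall, and Efna4 (chr3:89337979-89338278, minus strand) rose while its chromosomal neighbours Efna1 and Efna3 were not called. Capitals mark GC boxes (GGGCGG), the TEAD motif (GGAATG) and the CCAAT box (CCAAT) on either strand.
Plxnc1: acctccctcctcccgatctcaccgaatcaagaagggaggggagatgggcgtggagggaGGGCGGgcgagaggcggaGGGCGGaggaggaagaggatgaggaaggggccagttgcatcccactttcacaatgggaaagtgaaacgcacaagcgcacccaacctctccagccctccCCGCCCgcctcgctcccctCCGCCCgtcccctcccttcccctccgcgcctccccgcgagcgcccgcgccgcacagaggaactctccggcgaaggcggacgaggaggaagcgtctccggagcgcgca
Epha2: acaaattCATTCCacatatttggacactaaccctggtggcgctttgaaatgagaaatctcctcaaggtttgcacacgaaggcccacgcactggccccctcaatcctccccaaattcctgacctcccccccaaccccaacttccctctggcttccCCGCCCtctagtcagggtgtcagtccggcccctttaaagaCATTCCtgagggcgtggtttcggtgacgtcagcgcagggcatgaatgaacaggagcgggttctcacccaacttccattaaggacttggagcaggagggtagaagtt
Sema4g: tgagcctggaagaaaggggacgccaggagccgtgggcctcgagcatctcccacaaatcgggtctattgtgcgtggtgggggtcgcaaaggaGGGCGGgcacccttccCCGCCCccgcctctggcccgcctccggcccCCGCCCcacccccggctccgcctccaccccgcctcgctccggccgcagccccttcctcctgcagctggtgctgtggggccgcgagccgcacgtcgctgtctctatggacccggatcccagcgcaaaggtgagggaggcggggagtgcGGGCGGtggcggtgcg
Efna4: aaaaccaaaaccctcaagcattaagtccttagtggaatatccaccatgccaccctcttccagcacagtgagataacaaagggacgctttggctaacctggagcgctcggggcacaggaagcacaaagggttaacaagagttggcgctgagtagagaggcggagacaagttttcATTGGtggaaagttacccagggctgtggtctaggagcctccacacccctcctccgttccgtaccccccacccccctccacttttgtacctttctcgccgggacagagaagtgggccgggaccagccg
The Plxnc1 and Sema4g windows each held 4 GC boxes; Plxnc1 rose and Sema4g fell. The Epha2 window held 2 TEAD motifs and 1 GC box, and the Efna4 window held 1 CCAAT box. Among the 54 guidance genes with a promoter entry, 74.07% held a GC box, against 65.01% of 11888 tested genes with an entry. The TEAD motif was in 14.81% of guidance promoters and 14.83% of all tested ones, the AP-1 motif (TGANTCA) in 5.556% and 6.788%, the ETS motif (CCGGAA) in 12.96% and 28.47%, and the CCAAT box in 31.48% and 42.09%. The SMAD motif (GTCTAGAC) was in 0 of the 54 and in 0.3112% of all tested ones. Both strands were searched, and a match describes letters only.

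Obstruction was examined first, by setting vehicle-treated obstructed kidneys against healthy ones. Of the 61 guidance genes 42 rose (68.85%) and 9 fell (14.75%), while 10 were not called. Among all 16026 genes tested, 36.2% were called higher and 28.6% lower. At least 2-fold rises were called for 32 guidance genes (52.46%, against 19.6% of all genes), and 1 guidance gene, Sema4g, was called at least 2-fold lower (10.7% of all genes). The median log2 fold change was 1.04 over the guidance genes and 0.09 over all genes tested. For 34 guidance genes (55.74%) every vehicle library lay above every healthy one, which held for 24.7% of all genes. By role, 20 of 32 ligands and 22 of 29 receptors rose, and 6 ligands and 3 receptors fell. In RNA of bulk kidney, fewer cells of a type and less RNA per cell cannot be told apart.

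**Figure D1:**
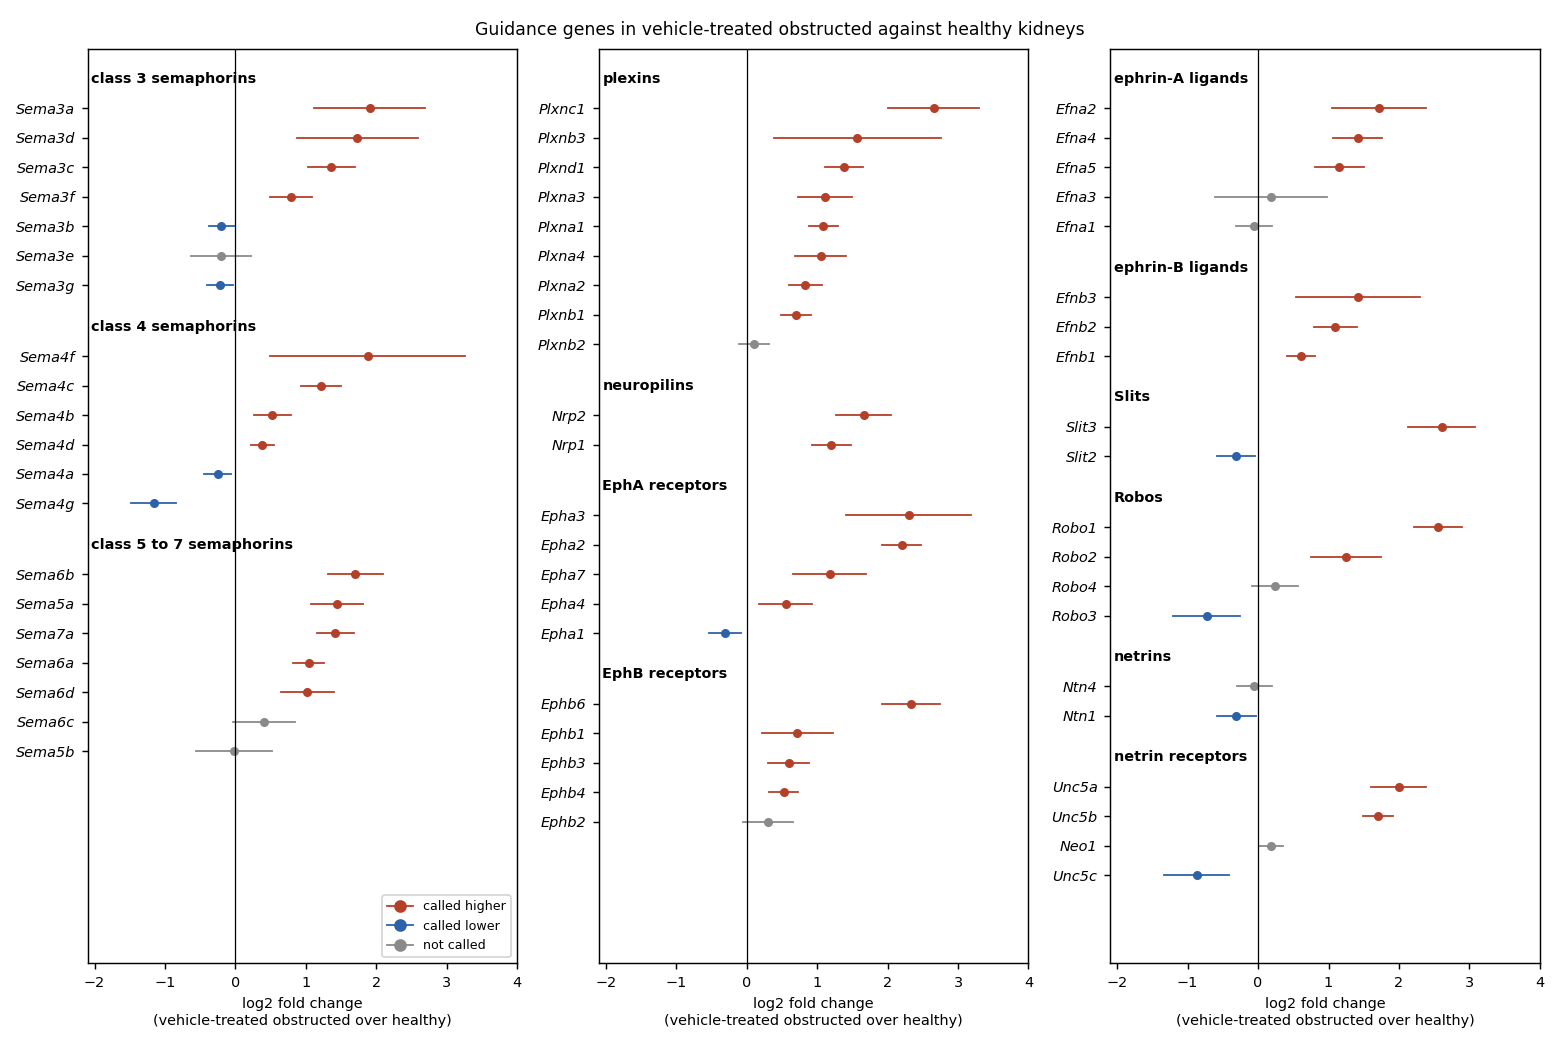
Log2 fold change of the 61 guidance genes in vehicle-treated obstructed kidneys over healthy kidneys (horizontal axis), by subfamily, with 95% confidence intervals as lines. Points right of 0 are higher in obstructed kidneys; 42 genes were called higher, 9 lower and 10 not called, and the points run from -1.16 for Sema4g to 2.65 for Plxnc1.

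The plot of fold changes by subfamily shows that the neuropilins and ephrin-B ligands were called higher in every member, while 7 of the 13 subfamilies held at least 1 member called lower. Markers of cell types moved in the same comparison. All 5 fibroblast and myofibroblast markers rose, and their sum was 1902 to 3491 CPM in vehicle-treated obstructed kidneys and 147.6 to 211.2 CPM in healthy kidneys. All 5 macrophage markers rose too, with sums of 749 to 958 CPM in vehicle-treated obstructed kidneys and 129 to 154.5 CPM in healthy kidneys. All 5 proximal tubule markers fell, with sums of 1972 to 4305 CPM in vehicle-treated obstructed kidneys and 10800 to 13460 CPM in healthy kidneys. All 4 injured tubule markers rose, with sums of 1607 to 2625 CPM in vehicle-treated obstructed kidneys and 19 to 34.5 CPM in healthy kidneys, and all 6 T and NK cell markers rose, with sums of 18.2 to 29.2 CPM and 4.42 to 6.04 CPM in the same groups. All 4 thick limb and distal tubule markers fell, with sums of 3430 to 5674 CPM in vehicle-treated obstructed kidneys and 9095 to 10700 CPM in healthy kidneys, as did 3 of 4 collecting duct markers, with sums of 157 to 348 CPM and 447 to 743 CPM. Of 6 endothelial markers 2 rose and 1 fell, and their sums overlapped at 313 to 437 CPM in vehicle-treated obstructed kidneys and 254 to 397 CPM in healthy kidneys. Of 7 listed Schwann cell and nerve markers 4 were tested and 2 rose. The sums over all 7 were 35.7 to 42.0 CPM in vehicle-treated obstructed kidneys and 17.6 to 23.9 CPM in healthy kidneys. Th, also on that list, had 0 counts. The part of these cell types in the result was not tested.

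Among the class 3 semaphorins 4 of 7 rose and 2 fell. Sema3c, a secreted ligand with roles in heart and kidney development, had 107 to 212 CPM (median 187) in vehicle-treated obstructed kidneys, against 61.2, 58.9, 56.2 and 88.3 CPM in healthy kidneys. The groups did not overlap, and the change was 1.36 ± 0.16 (log2, SE, adjusted p = 1.09e-07). Sema3f, a ligand of neuropilin-2 that repels vessels and axons, had 26.4 to 47.3 CPM (median 30.9) in vehicle-treated obstructed kidneys, against 22.2, 19.6, 18.2 and 15.3 CPM in healthy kidneys. Its libraries did not overlap either, with a change of 0.79 ± 0.14 (log2, SE, adjusted p = 4.40e-05). Sema3a and Sema3d also rose, by 1.91 and 1.73 on the log2 scale. Sema3a was low, at 1.24 to 3.505 CPM in vehicle-treated obstructed and 0.253 to 1.07 CPM in healthy kidneys. In vehicle replicate 6 Sema3d was at 3.615 CPM, below all healthy libraries (4.125 to 11.92 CPM). The other vehicle libraries held 16.57 to 36.49 CPM of Sema3d. Sema3e, a ligand of plexin-D1, was not called, at -0.20. Sema3b and Sema3g fell by 0.20 and 0.22 on the log2 scale (adjusted p = 0.0422 and 0.0325), and both calls were lost when single libraries were left out, for example without healthy replicate 2 (adjusted p = 0.0694 and 0.147). Without vehicle replicate 6 both were called, at -0.32 and -0.29 (adjusted p = 1.57e-04 and 0.00582).

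In class 4, 4 of 6 rose and 2 fell. Sema4g, a membrane-bound semaphorin, had 24.4 to 50.1 CPM (median 30.8) in vehicle-treated obstructed kidneys, against 69.5, 63.1, 75.5 and 85.8 CPM in healthy kidneys. All 7 vehicle libraries lay below all 4 healthy ones, at -1.16 ± 0.15 (log2, SE, adjusted p = 7.45e-07), and this was the only guidance gene with that pattern; 19.5% of all genes had it. Sema4c, a ligand of plexin-B2, had 20.8 to 29.7 CPM (median 24.4) in vehicle-treated obstructed kidneys, against 10.9, 12.6, 10.3 and 8.84 CPM in healthy kidneys, without overlap, at 1.22 ± 0.14 (log2, SE, adjusted p = 6.50e-08). Sema4b had 36.5 to 53.5 CPM (median 40.2) in vehicle-treated obstructed kidneys, against 32.02, 27.2, 33.2 and 26.7 CPM in healthy kidneys, at 0.52 ± 0.13 (log2, SE, adjusted p = 9.72e-04). Sema4a fell by 0.25 on the log2 scale, a call that upper-quartile scaling did not keep (adjusted p = 0.0848) and that stood at -0.36 without vehicle replicate 6 (adjusted p = 4.65e-04).

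In classes 5 to 7, 5 of 7 rose and 0 fell at this threshold. Sema7a, which is anchored by a lipid and binds plexin-C1 and integrin beta-1, had 21.1 to 29.5 CPM (median 22.8) in vehicle-treated obstructed kidneys, against 10.5, 7.99, 8.85 and 7.96 CPM in healthy kidneys. The groups did not overlap, at 1.42 ± 0.13 (log2, SE, adjusted p = 2.04e-09). Sema6a, a transmembrane ligand of plexins A2 and A4, had 32.7 to 42.1 CPM (median 37.2) in vehicle-treated obstructed kidneys, against 20.7, 16.3, 19.98 and 15.3 CPM in healthy kidneys. This rise, too, left no overlap, at 1.04 ± 0.10 (log2, SE, adjusted p = 1.08e-08). Sema5a and Sema6b rose by 1.44 and 1.70, and Sema5b and Sema6c were not called.

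**Figure D2:**
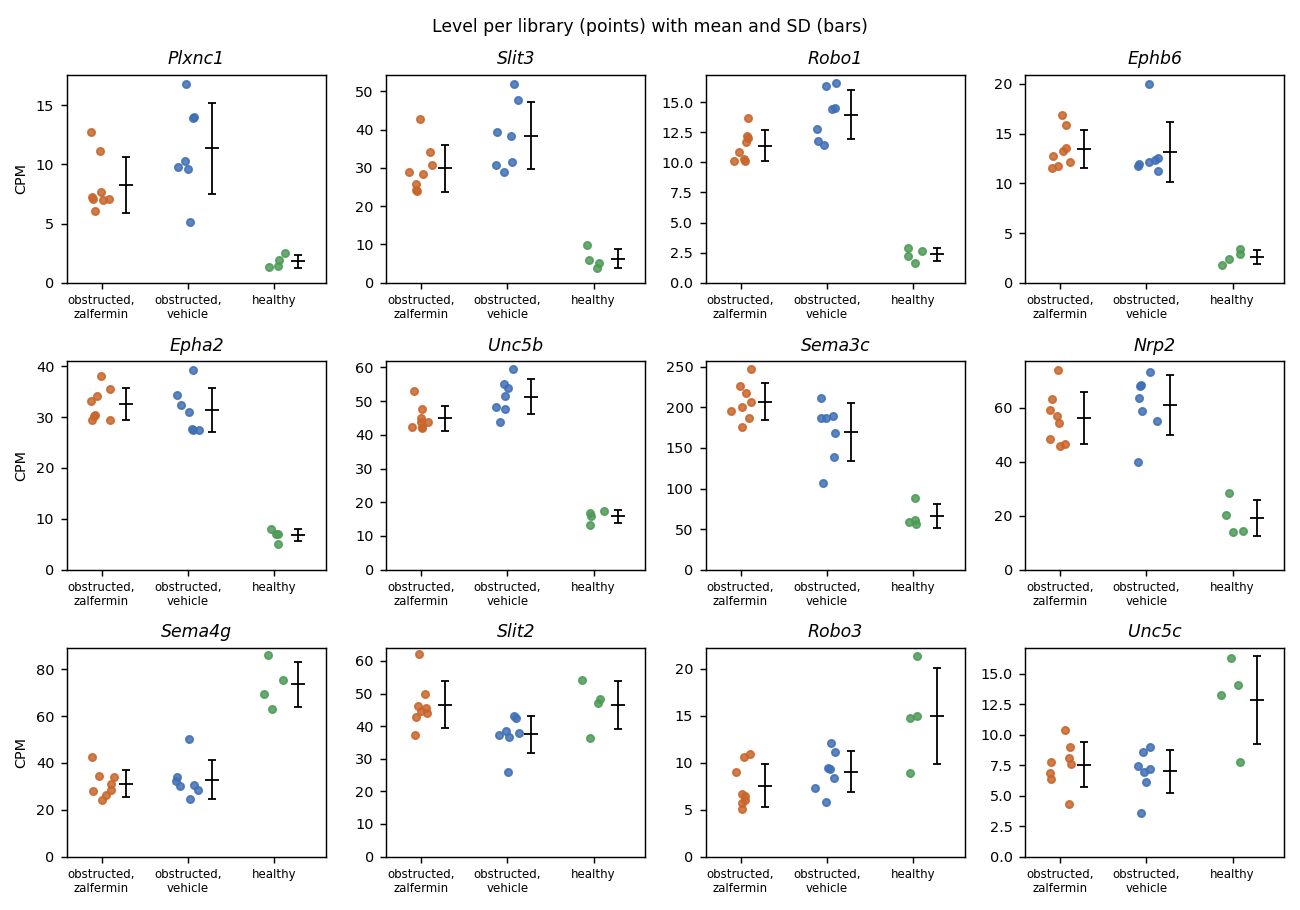
CPM per library (points) with mean and SD (bars) for 12 guidance genes in zalfermin-treated obstructed, vehicle-treated obstructed and healthy kidneys; the genes were picked after their values were seen. In vehicle-treated obstructed kidneys Epha2 lies at 27.5 to 39.3 CPM (median 30.9), above all 4 healthy values, while Sema4g lies below all 4.

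Of the semaphorin receptors, 8 of 9 plexins rose. Plxnc1, the receptor of Sema7a, was singled out after its values were seen. It had 5.15 to 16.8 CPM (median 10.2) in vehicle-treated obstructed kidneys, against 2.49, 1.33, 1.43 and 1.96 CPM in healthy kidneys. That is 2.65 ± 0.31 (log2, SE, adjusted p = 1.13e-07), without overlap. Plxna1, which pairs with neuropilins, had 92.03 to 131 CPM (median 105) in vehicle-treated obstructed kidneys, against 53.6, 45.3, 54.04 and 46.3 CPM in healthy kidneys, at 1.09 ± 0.10 (log2, SE, adjusted p = 2.75e-09). Plxnd1, an endothelial receptor of Sema3e, had 127 to 161 CPM (median 148) in vehicle-treated obstructed kidneys, against 77.2, 50.4, 54.2 and 42.3 CPM in healthy kidneys, at 1.38 ± 0.13 (log2, SE, adjusted p = 4.71e-09). Neither gene's groups overlapped. Plxnb2, the plexin with the highest level per length, was the one plexin not called, with 436 to 679 CPM (median 446) in vehicle-treated obstructed kidneys and 436, 442, 457 and 459 CPM in healthy kidneys.

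Both neuropilins rose. Nrp1, a co-receptor for class 3 semaphorins and for VEGF, had 109.5 to 158 CPM (median 132) in vehicle-treated obstructed kidneys, against 74.3, 54.96, 52.7 and 48.8 CPM in healthy kidneys. Nrp2, which also serves VEGF-C signalling in lymphatic vessels, had 39.9 to 73.3 CPM (median 63.6) in vehicle-treated obstructed kidneys, against 28.3, 20.2, 14.1 and 14.4 CPM in healthy kidneys. Neither gene overlapped, at 1.20 ± 0.14 (log2, SE, adjusted p = 6.27e-08) for Nrp1 and 1.66 ± 0.19 (log2, SE, adjusted p = 7.74e-08) for Nrp2.

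Among the ephrin-A ligands 3 of 5 rose and 2 were not called. Efna4 had 9.01 to 13.7 CPM (median 10.6) in vehicle-treated obstructed kidneys, against 4.45, 4.35, 4.30 and 3.34 CPM in healthy kidneys, at 1.42 ± 0.17 (log2, SE, adjusted p = 1.52e-07). Efna5 had 13.1 to 21.9 CPM (median 18.5) in vehicle-treated obstructed kidneys, against 12.3, 7.55, 6.75 and 6.29 CPM in healthy kidneys, at 1.15 ± 0.17 (log2, SE, adjusted p = 2.37e-06). For both, all vehicle libraries lay above all healthy ones. Efna1 and Efna3, which lie 52248 and 10425 bases from Efna4 on chromosome 3, had log2 fold changes of -0.06 and 0.18.

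All 3 ephrin-B ligands rose. Efnb1 had 52.1 to 73.97 CPM (median 55.9) in vehicle-treated obstructed kidneys, against 38.2, 41.5, 38.02 and 34.2 CPM in healthy kidneys, at 0.61 ± 0.10 (log2, SE, adjusted p = 8.83e-06). Efnb2, the ligand of Ephb4 in vessel formation, had 36.01 to 55.3 CPM (median 48.6) in vehicle-treated obstructed kidneys, against 31.1, 23.4, 17.4 and 17.4 CPM in healthy kidneys, at 1.10 ± 0.15 (log2, SE, adjusted p = 8.62e-07). Groups of both genes were apart. Efnb3, with 272 counts in all, had overlapping groups and a change of 1.42 ± 0.43 (log2, SE, adjusted p = 0.00579). Only vehicle replicate 6, at 0.402 CPM, overlapped the healthy libraries (0.266 to 0.801 CPM), and the other vehicle libraries held 1.33 to 1.96 CPM.

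Of the EphA receptors 4 of 5 rose and Epha1 fell. Epha2, an epithelial receptor tyrosine kinase, had 27.5 to 39.3 CPM (median 30.9) in vehicle-treated obstructed kidneys, against 8.01, 7.10, 7.00 and 5.11 CPM in healthy kidneys. The groups did not overlap, at 2.20 ± 0.13 (log2, SE, adjusted p = 3.88e-12). Epha3 had 0.803 to 8.20 CPM (median 6.37) in vehicle-treated obstructed kidneys, against 1.16, 0.977, 1.69 and 0.884 CPM in healthy kidneys, and vehicle replicate 6, at 0.803 CPM, was below all healthy libraries. Its change was 2.30 ± 0.43 (log2, SE, adjusted p = 6.19e-05). Epha1 had 17.1 to 22.4 CPM (median 18.5) in vehicle-treated obstructed kidneys, against 21.7, 23.9, 25.4 and 23.2 CPM in healthy kidneys. The groups overlapped, at -0.31 ± 0.11 (log2, SE, adjusted p = 0.0176), and leaving out healthy replicate 3 ended the call (adjusted p = 0.0631). Epha1 shares 236 exon bases with Zyx on the opposite strand, a gene with 33572 counts that was higher in vehicle-treated obstructed kidneys; whether counting used strand is not stated, and reads of the 2 genes may not be fully separated.

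Among EphB receptors 4 of 5 rose. Ephb6, whose kinase domain is inactive, had 11.2 to 20.02 CPM (median 12.1) in vehicle-treated obstructed kidneys, against 2.94, 3.37, 1.77 and 2.36 CPM in healthy kidneys, at 2.33 ± 0.20 (log2, SE, adjusted p = 7.20e-10). Ephb4, the receptor of ephrin-B2 on veins, had 91.2 to 120.5 CPM (median 95.2) in vehicle-treated obstructed kidneys, against 72.3, 76.2, 72.2 and 53.04 CPM in healthy kidneys, at 0.52 ± 0.10 (log2, SE, adjusted p = 6.09e-05). Neither overlapped. Ephb2 was not called, at 0.30.

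The Slits went in opposite directions. Slit3 had 29.03 to 51.95 CPM (median 38.2) in vehicle-treated obstructed kidneys, against 9.87, 4.00, 6.07 and 5.21 CPM in healthy kidneys, without overlap and at 2.61 ± 0.23 (log2, SE, adjusted p = 1.32e-09). Slit2 had 25.8 to 43.3 CPM (median 37.9) in vehicle-treated obstructed kidneys, against 54.1, 36.4, 48.4 and 47.2 CPM in healthy kidneys, with overlap and at -0.31 ± 0.13 (log2, SE, adjusted p = 0.0431). The call for Slit2 was lost with single libraries left out, upper-quartile scaling and no filter (adjusted p = 0.0863 and 0.0681 for the last 2), and without vehicle replicate 6 it was kept, at -0.36 (adjusted p = 0.0228).

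Of the Robo receptors 2 rose, 1 fell and 1 was not called. Robo1 had 11.5 to 16.6 CPM (median 14.4) in vehicle-treated obstructed kidneys, against 2.22, 2.66, 2.87 and 1.67 CPM in healthy kidneys, at 2.56 ± 0.16 (log2, SE, adjusted p = 9.08e-12) and without overlap. Robo2, the receptor that acts with Slit2 in ureteric budding, had 11.5 to 39.2 CPM (median 30.6) in vehicle-treated obstructed kidneys. Healthy kidneys had 14.2, 11.01, 12.98 and 10.6 CPM, and the change was 1.25 ± 0.24 (log2, SE, adjusted p = 9.65e-05). Only vehicle replicate 6, at 11.51 CPM, overlapped the healthy libraries, and the other vehicle libraries held 25.34 to 39.16 CPM. Without that library the change was 1.34 (log2, edgeR adjusted p = 4.68e-07). Robo3 fell by 0.73 on the log2 scale (adjusted p = 0.00848), which was not called once healthy replicate 1 was left out (adjusted p = 0.0729), while Robo4, the endothelial Robo, was not called at 0.25. Robo3 and Robo4 lie 554 bases apart on chromosome 9.

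Of the netrins Ntn1 fell and Ntn4 was not called. Ntn1, the first netrin described in axon guidance, had 85.8 to 145.2 CPM (median 101) in vehicle-treated obstructed kidneys, against 107, 128, 126 and 165 CPM in healthy kidneys, with overlap and at -0.31 ± 0.13 (log2, SE, adjusted p = 0.0438). Leaving out healthy replicate 4 ended the call (adjusted p = 0.258), as did further alternatives, while without vehicle replicate 6 the change was -0.45 (adjusted p = 0.00107). Ntn4, a basement membrane protein related to laminins, had 142 to 216 CPM (median 183) in vehicle-treated obstructed kidneys, against 204, 189, 215 and 154 CPM in healthy kidneys, at -0.05 ± 0.12 (log2, SE, adjusted p = 0.715).

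Netrin receptors split as well, with 2 higher, 1 lower and 1 not called. Unc5b, a netrin receptor of vessels, had 43.7 to 59.5 CPM (median 51.4) in vehicle-treated obstructed kidneys, against 17.4, 15.98, 13.2 and 16.7 CPM in healthy kidneys, at 1.70 ± 0.10 (log2, SE, adjusted p = 3.40e-12). Unc5a had 5.68 to 9.24 CPM (median 7.65) in vehicle-treated obstructed kidneys, against 2.22, 1.78, 2.02 and 1.38 CPM in healthy kidneys, at 1.996 ± 0.19 (log2, SE, adjusted p = 4.23e-09). Neither overlapped. Unc5a shares 34 exon bases with Hk3 on the opposite strand, whose log2 fold change was 3.31 here and -0.42 in zalfermin-treated against vehicle-treated kidneys, and reads of the 2 genes may not be fully separated. Unc5c fell by 0.87 on the log2 scale (adjusted p = 0.00165), and Neo1, which binds netrins and repulsive guidance molecules, stood at 0.18 (adjusted p = 0.0503).

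**Figure D3:**
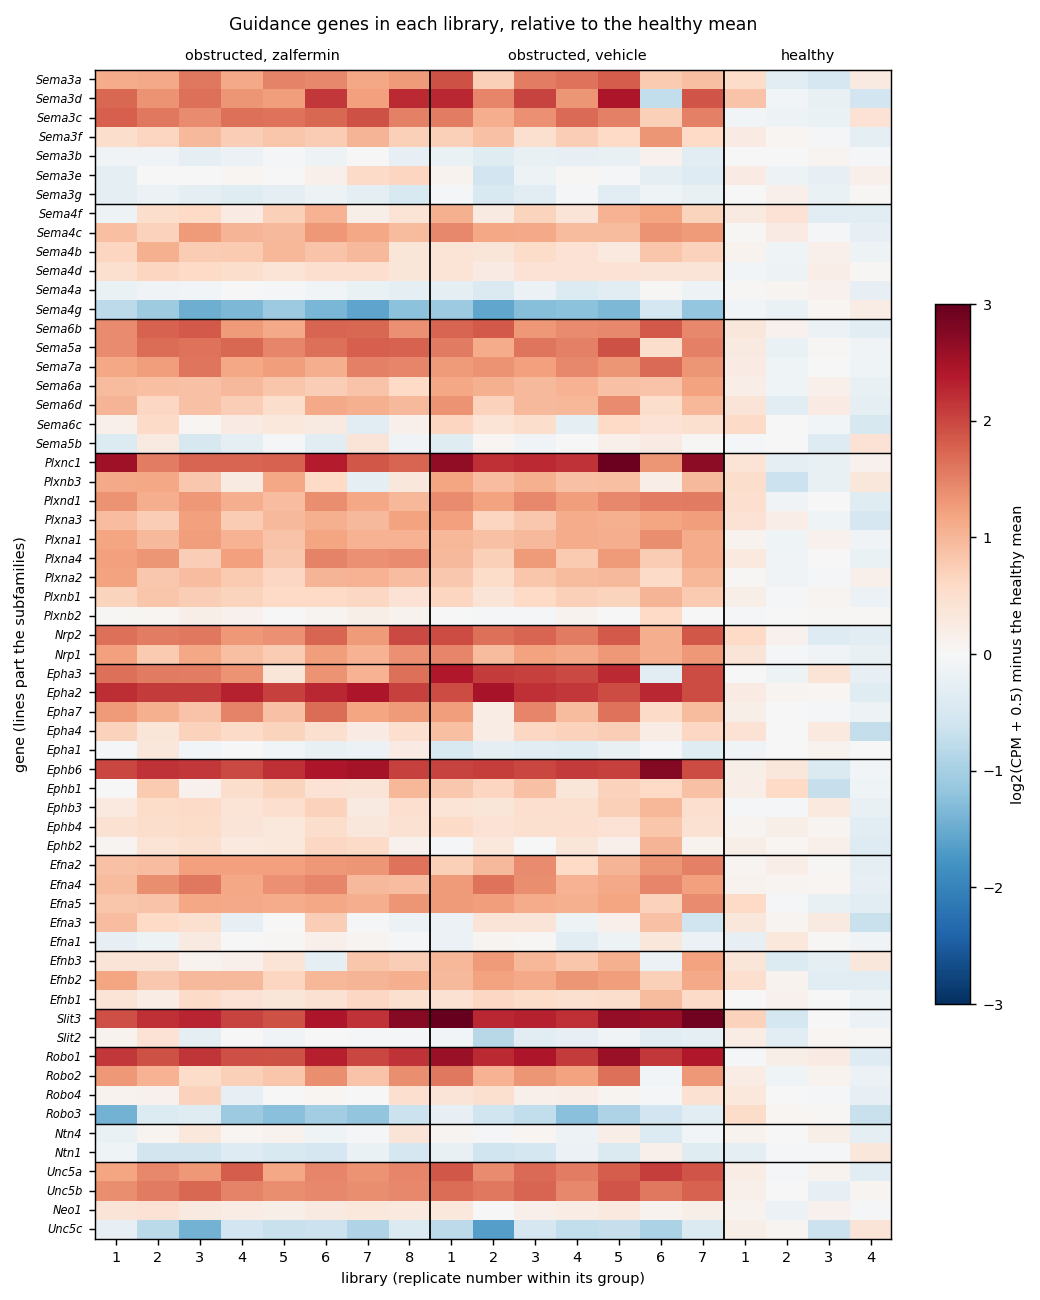
Log2(CPM + 0.5) of each guidance gene in each of 19 libraries minus the healthy mean, with zalfermin-treated obstructed, vehicle-treated obstructed and healthy libraries from left to right and lines between subfamilies. Red is above and blue below the healthy mean; Slit3, Robo1 and Ephb6 are red throughout both obstructed groups, Sema4g is blue there, and vehicle replicate 6 is the highest vehicle library for 21 genes.

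Levels per length, in CPM per kb of transcript, show which members made up each family. Plxnb2 was highest in each group, at 74.0 ± 3.21 in zalfermin-treated obstructed, 74.3 ± 13.5 in vehicle-treated obstructed and 69.1 ± 1.72 in healthy kidneys (SD), followed by Ntn4 at 55.0 ± 7.89, 50.4 ± 6.59 and 52.3 ± 7.19 and by Sema4a at 40.5 ± 2.59, 37.4 ± 4.51 and 44.5 ± 4.94 in the same groups. Slit3 made up 54.7% ± 6.25 of the Slit level in zalfermin-treated obstructed kidneys, 65.8% ± 4.44 in vehicle-treated obstructed kidneys and 19.9% ± 4.02 in healthy kidneys. With all exons of a gene merged as its length, which makes Slit2 2.55 times longer, these shares were 72.5%, 80.8% and 35.2%. Epha2 held 43.6% ± 4.21 of the EphA level in zalfermin-treated obstructed, 45.2% ± 4.74 in vehicle-treated obstructed and 16.04% ± 2.14 in healthy kidneys, and Epha1 37.8% ± 4.51, 32.9% ± 2.79 and 66.8% ± 5.42. Sema3c held 45.7% ± 2.32, 40.8% ± 6.26 and 22.03% ± 4.28 of the class 3 level in the same groups. Unc5b held 37.6% ± 2.27, 41.5% ± 2.40 and 20.6% ± 2.34 of the netrin receptor level, and Neo1 51.6% ± 1.93, 46.3% ± 2.38 and 65.7% ± 4.79. These shares are descriptions without a test.

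**Figure D4:**
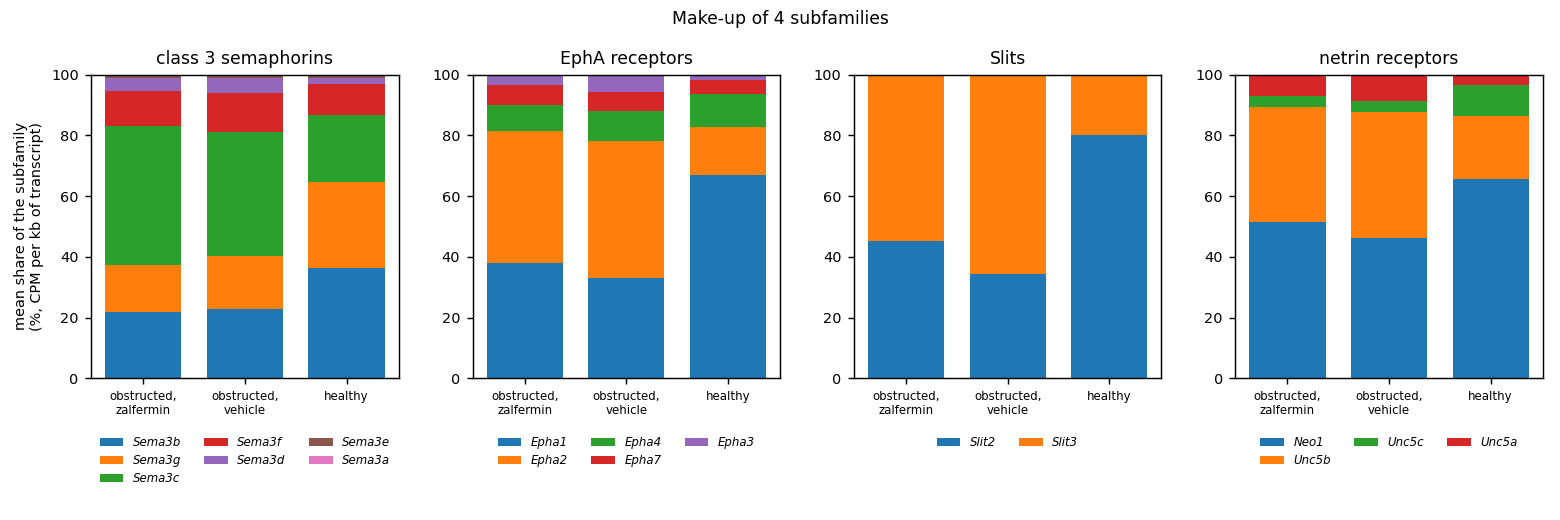
Mean share of each member in the summed CPM per kb of transcript of 4 subfamilies (vertical axis, %), in zalfermin-treated obstructed, vehicle-treated obstructed and healthy kidneys; the subfamilies were picked after their values were seen. Slit3 makes up 65.8% of the Slit bar in vehicle-treated obstructed kidneys and 19.9% in healthy kidneys.

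The drug was examined by setting zalfermin-treated obstructed kidneys against vehicle-treated ones. None of the 61 guidance genes was called by edgeR (0, against 1.81% of all genes). With all libraries the groups overlapped for all 61, while 0.349% of all genes lay wholly above and 0.256% wholly below. At an unadjusted p below 0.05 there were 14 guidance genes (22.95%, against 15.5% of all genes), 5 with a positive and 9 with a negative fitted change. The median log2 fold change was -0.07 over the guidance genes and 0.01 over all genes. The 95% confidence interval lay within 1.5-fold of no change for 46 genes and reached past it for 15. DESeq2 called 1 guidance gene, Epha1, against 3.76% of all genes. Voom with sample quality weights called 10 of the 61, against 7.16% of all genes. Of the 61, 8 were called lower and 2 higher, against 4.03% and 3.13% of all genes. In that run 646 of the 1148 calls over all genes were lower. That run gave vehicle replicate 6 a weight of 0.0862, against 0.497 to 2.08 for the other libraries. Voom without weights called 0 (2.10% of all genes).

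The 5 guidance genes with the smallest p here were Epha1, Sema4b, Unc5a, Slit2 and Robo1. Epha1 had 20.1 to 30.1 CPM (median 22.4) in zalfermin-treated obstructed kidneys, against 17.1 to 22.4 CPM (median 18.5) in vehicle-treated obstructed kidneys. All 8 zalfermin libraries lay above the vehicle median, and the change was 0.32 ± 0.09 (log2, SE, adjusted p = 0.0754) with a 95% interval of 0.13 to 0.50. Sema4b had 38.3 to 62.97 CPM (median 53.1) in zalfermin-treated obstructed kidneys, against 36.5 to 53.5 CPM (median 40.2) in vehicle-treated obstructed kidneys. With 7 of 8 above the vehicle median, it stood at 0.30 ± 0.10 (log2, SE, adjusted p = 0.131). Slit2 had 37.3 to 62.1 CPM (median 45.2) in zalfermin-treated obstructed kidneys, against 25.8 to 43.3 CPM (median 37.9) in vehicle-treated obstructed kidneys, also with 7 of 8 above, at 0.31 ± 0.11 (log2, SE, adjusted p = 0.159). Unc5a had 4.74 to 7.67 CPM (median 5.62) in zalfermin-treated obstructed kidneys, against 5.68 to 9.24 CPM (median 7.65) in vehicle-treated obstructed kidneys, with 7 of 8 below the vehicle median and -0.38 ± 0.13 (log2, SE, adjusted p = 0.143). Robo1 had 10.1 to 13.7 CPM (median 11.3) in zalfermin-treated obstructed kidneys, against 11.5 to 16.6 CPM (median 14.4) in vehicle-treated obstructed kidneys, with 8 of 8 below and -0.29 ± 0.11 (log2, SE, adjusted p = 0.186). No adjusted p among these was below 0.05.

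Without vehicle replicate 6, edgeR called 4 guidance genes (3.24% of all genes). Epha1 (log2 fold change 0.35, adjusted p = 0.0282) and Sema4b (0.36, adjusted p = 0.0422) were higher in zalfermin-treated kidneys. Epha3 (-0.85, adjusted p = 0.0119) and Efnb3 (-1.01, adjusted p = 0.0357) were lower. With that library left out, the groups no longer overlapped for Epha1, Epha3 and Efnb3, while they still did for Sema4b. The share of all genes without overlap was not computed for that setting. Vehicle replicate 6 was the lowest vehicle library for Epha3 and Efnb3 and the highest for Epha1, so leaving it out in itself favours separation. In vehicle replicate 6 Epha3 was at 0.803 CPM, against 5.85 to 8.20 CPM in the other vehicle libraries. Efnb3 was at 0.402 CPM there, against 1.33 to 1.96 CPM. With all 19 libraries Epha3 was at 1.63 to 4.71 CPM (median 4.01) in zalfermin-treated obstructed kidneys and 0.803 to 8.20 CPM (median 6.37) in vehicle-treated obstructed kidneys, and stood at -0.64 ± 0.29 (log2, SE, adjusted p = 0.290), and Efnb3 stood at -0.83 ± 0.31 (log2, SE, adjusted p = 0.190). Fibroblast and myofibroblast markers summed to 1160 to 1867 CPM in zalfermin-treated obstructed kidneys and 1902 to 3491 CPM in vehicle-treated obstructed kidneys. Of these 5 markers 2 were called lower. Macrophage markers summed to 594 to 881 CPM and 749 to 958 CPM in the same groups, with 0 of 5 called. On the other marker lists 1 injured tubule and 1 podocyte marker were called higher, and no further marker was called. The part of these cell types in the values was not tested.

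**Figure D5:**
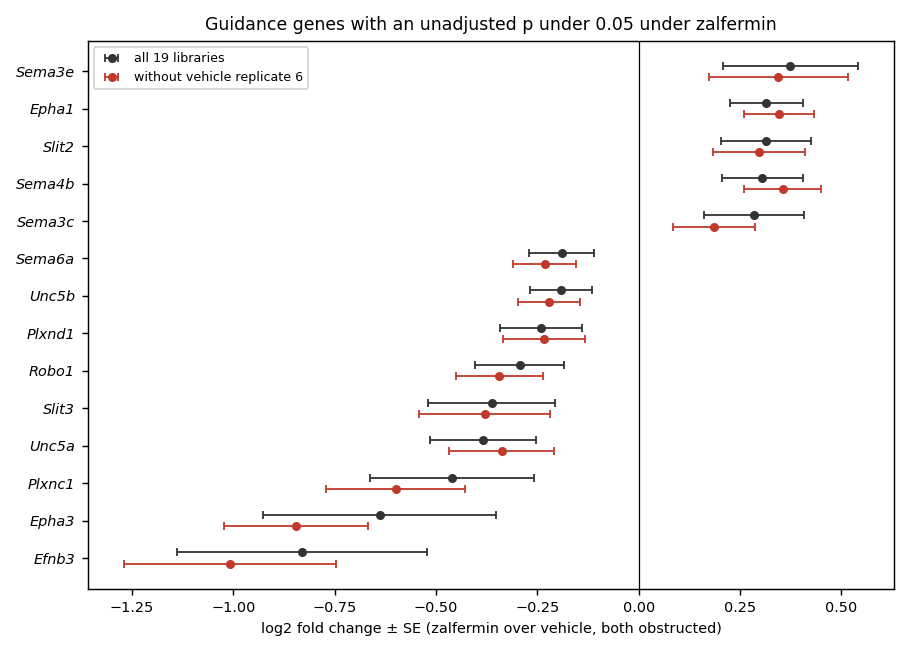
Log2 fold change with SE of the 14 guidance genes with an unadjusted p below 0.05, zalfermin-treated over vehicle-treated obstructed kidneys, with all 19 libraries (dark) and without vehicle replicate 6 (red). Epha3 lies at -0.64 with all libraries and at -0.85 without that library, and Epha1 at 0.32 and 0.35.

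The plot of the 14 genes shows that none changed sign without that library. Against healthy kidneys, zalfermin-treated obstructed kidneys had 39 guidance genes higher (63.93%, against 37.3% of all genes) and 5 lower (8.197%, against 27% of all genes), with a median log2 fold change of 0.88 (0.13 over all genes). The 5 lower genes were Sema4g (-1.24), Robo3 (-0.99), Unc5c (-0.76), Ntn1 (-0.42) and Sema3g (-0.28). Slit2 stood at 0.00 (adjusted p = 0.999) and Epha1 at 0.01 (adjusted p = 0.945). This comparison shares its zalfermin libraries with the comparison of the drug and its healthy libraries with that of obstruction.

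Partner genes that work beside the guidance receptors were listed separately. Over all partner lists, 54 of 81 tested genes rose and 10 fell in vehicle-treated obstructed against healthy kidneys (36.2% and 28.6% of all genes), with a median log2 fold change of 0.51 (0.09 over all genes). Of other ligands and co-receptors 12 of 21 tested rose and 5 fell, and of effectors close to the receptors 22 of 33 tested rose and 5 fell. Among the co-receptors and ligands, Sdc3, a heparan sulfate proteoglycan, rose by 2.31, Cd72, a Sema4d receptor of B cells, by 3.33, and Vegfa, a ligand of neuropilins, fell by 1.16 on the log2 scale. Of the receptor-proximal effectors, Fes, a kinase downstream of plexins, rose by 1.998, Mical2, which oxidises actin, by 1.85, and Rnd1, a GTPase that binds plexins, by 3.02. Mical1, an actin-oxidising relative of Mical2, was the 1 gene of the 81 called in zalfermin-treated against vehicle-treated obstructed kidneys, where 1.81% of all genes were called, at 12.7 ± 1.61 CPM and 17.02 ± 1.98 CPM (SD, n = 8 and 7), with a log2 fold change of -0.42 (edgeR adjusted p = 0.0473) and 8 of 8 zalfermin libraries below the vehicle median. That call was lost with no filter and with most single libraries left out.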

How the data were processed

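The authors deposited raw read counts per gene for 19 libraries, whole numbers without normalization. Per the submitters' processing notes, reads were aligned with STAR 2.7.0f to GRCm38; the counter, its use of strand and its annotation are not stated there. Coordinates and lengths came from GENCODE M21. Groups were taken from the sample labels. Low genes were removed by filterByExpr of edgeR (count 10, total 15), and the rest were scaled by TMM and fitted in 1 quasi-likelihood model (edgeR 4.0.16, R 4.3.3); a gene was called at a Benjamini-Hochberg adjusted p below 0.05 over 16026 genes. DESeq2 1.42.0 and voom (limma 3.58.1) were alternatives. On simulated data the fit recovered 77.6% of 2-fold changes in vehicle against healthy kidneys and 82.1% in zalfermin against vehicle kidneys. For 1.5-fold changes it recovered 49.3% and 61.2%. The simulation changed 200 of 16026 genes and held no outlying library, so recovery in the real data may differ. No pair of libraries within a group agreed within sampling noise (the closest pair differed by a chi-square of 5.89 for each degree of freedom).

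The members and the lists of partner and marker genes were chosen with earlier results of these data known. Values per library were given for the 2 members of each subfamily with the smallest p for obstruction and the 5 with the smallest p for zalfermin; further genes described in this way were chosen after their values were seen. Levels per kb used the longest APPRIS principal transcript. That length replaced the merged exons of the gene after the first shares had been seen, because merged exons exceeded 2 times the transcript for 5 members; the sign of the vehicle minus healthy difference in share was the same with either length for all 61. A list of partner genes is not reported on its own here.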

Additional observations from a re-analysis of the deposited data

Results flagged for a closer look

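Values of 34 guidance genes described or plotted by library were checked for a library far from the rest of its group. Of these genes 6 were chosen after their values were seen. In 102 combinations of gene and group 15 libraries stood out, where chance alone marks about 1 in 20.

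Vehicle replicate 6 held 10 of them. It was the highest of the vehicle libraries for Efnb1 (73.97 CPM, others 52.1 to 58.1), Ephb4 (120.5 CPM, others 91.2 to 100.7), Ephb6 (20.02 CPM, others 11.3 to 12.5) and Plxna1 (131.3 CPM, others 92.0 to 108.5). It was also the highest for Plxnb2 (678.7 CPM, others 436 to 483.5), Sema3f (47.33 CPM, others 26.4 to 34.8), Sema4g (50.14 CPM, others 24.4 to 34.1) and Sema7a (29.52 CPM, others 21.1 to 24.7), and the lowest for Epha3 (0.8033 CPM, others 5.85 to 8.20) and Efnb3 (0.4016 CPM, others 1.33 to 1.96). This library's proximal tubule markers summed to 4305 CPM (others 1972 to 3543) and its endothelial markers to 313 CPM (others 362 to 437); their part in these values was not tested.

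Healthy replicate 4 was the lowest healthy library for Efna4 (3.339 CPM, others 4.30 to 4.45) and Ephb4 (53.04 CPM, others 72.3 to 76.2) and the highest for Sema3c (88.3 CPM, others 56.2 to 61.2). Vehicle replicate 2 was the lowest for Slit2 (25.8 CPM, others 36.8 to 43.3), and zalfermin replicate 4 the highest for Unc5a (7.674 CPM, others 4.74 to 5.90).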

How the results depend on the processing

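The 42 guidance genes higher in vehicle-treated obstructed than in healthy kidneys numbered 40 to 44 under every alternative run, leaving out single libraries included. The 9 lower numbered 4 with upper-quartile scaling, with no filter and with only the 2 groups fitted, and 4 to 9 with single libraries left out. In zalfermin-treated against vehicle-treated obstructed kidneys, 0 were called higher with all libraries, 1 by DESeq2, 2 by voom with quality weights and 0 to 2 with single libraries left out; 0 were called lower, 8 by voom with quality weights and 0 to 2 with single libraries left out. Voom without quality weights, added after seeing the data, called 0 in each direction. Against healthy kidneys zalfermin-treated kidneys had 38 to 43 higher and 4 to 7 lower. Of 81 partner genes tested, 64 were called with obstruction in the main run (64.8% of all genes), and 57 to 72 under the alternatives. Under zalfermin 1 was called in the main run (1.81% of all genes). DESeq2 called 2 (3.76% of all genes) and voom with quality weights 6 (7.16% of all genes). With no filter 0 partner genes were called, and 0 to 2 with single libraries left out. The causes were not tested.

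No called member changed direction under an alternative run. Low counts limit Sema4f and Plxnb3, which were at 0 in 2 and 1 healthy libraries; leaving out healthy replicate 3 ended both calls (adjusted p = 0.067 and 0.068). Epha4 (without healthy replicate 4, adjusted p = 0.0618) and Ephb1 (without healthy replicate 3, adjusted p = 0.0758) lost theirs too, and Neo1 and Sema6c gained calls, for example without healthy replicate 1 (adjusted p = 0.0373 and 0.012). No paired analysis was possible because the labels link no libraries across groups. Each sample title opens with a number of its own, but the replicate numbers used here come from accession order alone.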

Other observations

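A further 8 genes of these families matched by symbol but had too few reads to be members. Over 19 libraries Slit1 had 53 counts, Epha8 44, Epha6 17, Ntn5 13, Unc5d 10, Dcc and Epha10 2 each, and Epha5 1. Dcc, the classical netrin receptor of growing axons, was therefore close to undetected in these kidneys, while Neo1, its relative, averaged 77.6 ± 4.70 CPM in zalfermin-treated obstructed, 72.0 ± 5.46 CPM in vehicle-treated obstructed and 63.4 ± 6.56 CPM in healthy kidneys (SD, n = 8, 7 and 4).

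Members that lie close together on a chromosome did not always share a call. The pairs named here are examples. Sema3b fell and Sema3f rose with obstruction, 72271 bases apart on chromosome 9, but the Sema3b call was lost in 12 of 28 alternative runs. Sema3a rose and Sema3e was not called, 422711 bases apart on chromosome 5. Epha1 fell and Ephb6 rose, 737978 bases apart on chromosome 6, and the Epha1 call was lost in 1 of 28 alternative runs. Robo1 and Robo2 both rose, 845744 bases apart on chromosome 16.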
